A study of Mus musculus with 30 samples.

Results

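The wild-type methylation of the IG-CGI, a CpG island of the imprinted Dlk1-Dio3 domain, was compared between 4 mouse sources. The members are the 4 libraries, of 30 in a series that set wild-type beside mutant genotypes, that were labelled wild type and whose reads lie on the IG-CGI amplicon. They are MII oocytes, V6.5 embryonic stem cells (mESC, an established mouse line, in a library named as without a reporter), E10.5 embryo trunk and adult tail. All 4 carry no labelled allele or treatment. The labels used here give no strain, sex or animal number, and do not say whether animals were pooled. Each source is 1 library, and the submitters' naming places the 4 libraries in 4 sequencing orders, so source and order cannot be told apart. Amplicon reads carry no marker of tissue, so the source of each library rests on its label.

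Imprinted genes are expressed from 1 parental copy, and DNA methylation at a control region of their domain records which parent a copy came from. In the Dlk1-Dio3 domain the control region lies between Dlk1, a protein-coding gene expressed from the paternal copy, and Meg3 (also called Gtl2), a long non-coding RNA expressed from the maternal copy. The paternal copy gains its methylation in the male germ line and keeps it after fertilization, while the maternal copy stays unmethylated. Oocytes therefore hold only copies of the unmethylated kind, and somatic cells hold both kinds. In mm10 Dlk1 lies at chromosome 12, 109452485 to 109463336, and Meg3 at 109540996 to 109571729. CpGs are named here by their base on the amplicon reference, since the amplicon was not placed in the genome and its sequence was not used here.

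The amplicon holds 29 CpGs, and the first is CpG 55. The libraries held 1183 reads from oocytes, 1218 from mESC, 1369 from trunk and 1741 from tail. Each CpG had 876 to 1140 calls in oocytes, 938 to 1181 in mESC, 1134 to 1339 in trunk and 1544 to 1709 in tail, with the fewest at the last CpG in every library. The reads come from PCR without molecular identifiers and are not independent molecules. All intervals below are at 95%, and they and the p-values cover the counting of reads in these 4 libraries, not the variation between animals or cultures.

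The IG-CGI was nearly free of methylation in oocytes and was partly methylated in the other sources, with the lowest level in mESC and the highest in tail. The mean level over CpGs was 0.301% in oocytes (interval 0.243 to 0.360). It was 36.8% in mESC (34.2 to 39.3), 45.1% in trunk (42.7 to 47.4) and 51.9% in tail (49.9 to 53.9). Trunk lay 8.33 points above mESC (interval 4.90 to 11.8), tail 6.79 points above trunk (3.71 to 9.87) and tail 15.1 points above mESC (11.9 to 18.3). By value, the order mESC, trunk, tail held at 29 of 29 CpGs. The CpGs were called on the same reads, so this count and the counts of CpGs below are not separate observations.

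This order of the sources depended on how reads of identical pattern were counted. When reads sharing an identical pattern of calls were taken as 1, the means were 55.7% in mESC, 52.9% in trunk and 48.6% in tail, which is the opposite order, and 1.37% in oocytes. That count takes all reads unmethylated at every CpG as 1 read, and likewise all reads methylated at every CpG. Reads called at all CpGs numbered 736 in oocytes, 795 in mESC, 977 in trunk and 1339 in tail. Of these, 669 (90.9%) in oocytes, 349 (43.9%) in mESC, 231 (23.6%) in trunk and 137 (10.2%) in tail were unmethylated throughout. Those methylated throughout numbered 0 in oocytes, 99 (12.5%) in mESC, 144 (14.7%) in trunk and 245 (18.3%) in tail.

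Single CpGs of the oocyte library lay between 0 and 1.29%, the highest being CpG 228. At CpG 147 none of 1139 oocyte calls was methylated. In mESC the levels ran from 33.0% at CpG 131 to 41.4% at the last CpG, and in trunk from 36.8% at CpG 131 to 49.3% at CpG 214. In tail they ran from 42.5% at CpG 131 to 68.7% at CpG 59. CpG 131 was thus the lowest in each of the 3 sources with both parental copies. The SD over the 29 CpGs was 1.42 points in mESC, 2.71 in trunk and 5.13 in tail, so the profile was flattest in mESC and most uneven in tail.

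**Figure D1:**
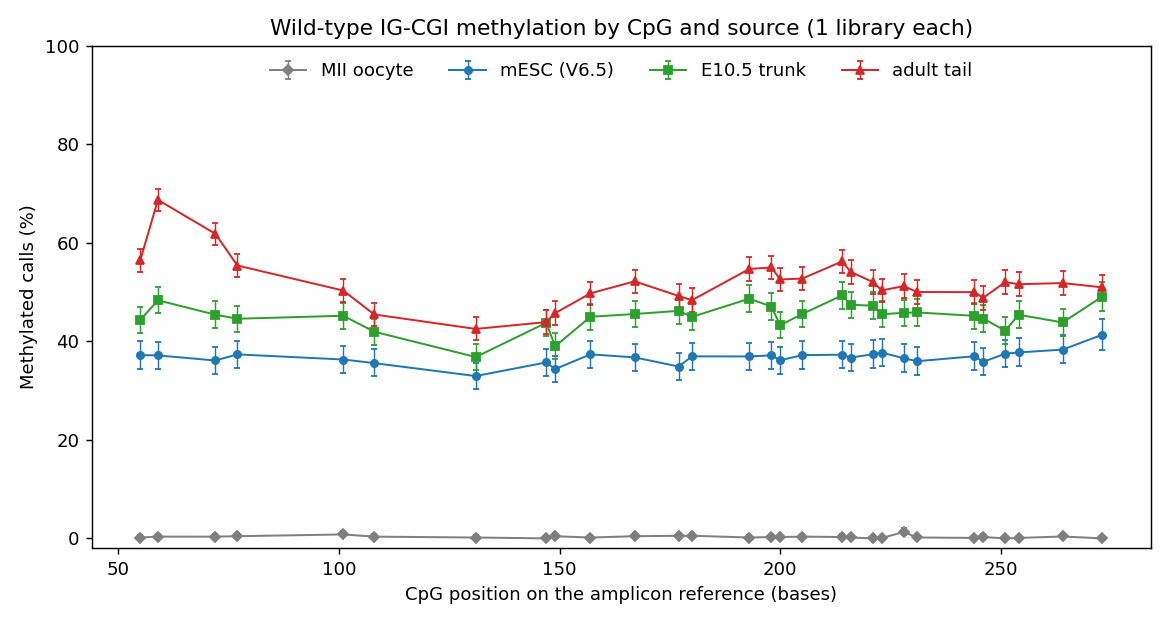
Methylated calls (%) at each of the 29 CpGs, plotted against the base on the amplicon reference, with 1 line for each source and bars for the 95% Wilson interval of the calls. The oocyte line stays at or below 1.29%, the tail line peaks at CpG 59 with 68.7%, and the mESC, trunk and tail lines dip at CpG 131.

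CpG by CpG, libraries were compared by Fisher's exact test, with p adjusted by Benjamini-Hochberg over all 174 tests of the 6 pairs. Calling a CpG required an adjusted p below 0.05 together with a gap of 10 points or more. Against oocytes, 29 of 29 CpGs were called higher in mESC, in trunk and in tail (100% in each pair). The difference from oocytes was largest at the last CpG in mESC, with 41.4 points, and in trunk, with 49.1 points. In tail it was largest at CpG 59, with 68.4 points. It was smallest at CpG 131 in all 3, with 32.8 points in mESC, 36.6 in trunk and 42.4 in tail.

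Trunk was called above mESC at 5 of 29 CpGs (17.2%), namely CpG 59, 177, 193, 214 and 216. CpG 214 differed most, at 49.3% in trunk and 37.3% in mESC (12.03 points, adjusted p = 2.54e-09 by Fisher's exact test). The smallest was at CpG 131, with 36.8% and 33.0% (3.86 points, adjusted p = 0.0491 by Fisher's exact test). Tail was called above mESC at 25 of 29 CpGs (86.2%), and the exceptions were CpG 131, CpG 147, the last CpG and the sixth. CpG 59 differed most, with 68.7% in tail and 37.2% in mESC (31.6 points, adjusted p = 6.81e-63 by Fisher's exact test), and CpG 147 least, with 43.9% and 35.7% (8.18 points). With identical patterns counted once, 0 CpGs were called between trunk and mESC. Of 10 called between tail and mESC, 9 were then lower in tail and only CpG 59 was higher.

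The difference between tail and trunk was largest at the start of the amplicon. Tail was called higher at 4 of 29 CpGs (13.8%), and these were the first 4 of the amplicon, CpG 55, 59, 72 and 77. CpG 59 was at 68.7% in tail and 48.3% in trunk (20.4 points, adjusted p = 1.91e-29 by Fisher's exact test). The differences were 12.1 points at CpG 55, 16.4 at CpG 72 and 10.8 at CpG 77. Further along, CpG 251 and CpG 200 fell just short of the size required, at 9.89 and 9.29 points. At CpG 147 the libraries lay at 43.9% and 43.8%, and at the last CpG at 51.0% and 49.1%. Without a minimum size, 24 of 29 CpGs had an adjusted p below 0.05 by Fisher's exact test, so the excess of tail was not confined to the start. No CpG was called lower in trunk than in mESC, or lower in tail than in mESC or trunk. With identical patterns counted once, 3 CpGs were called between tail and trunk. CpG 59 was higher in tail, by 11.6 points, and CpG 147 and the last CpG were lower, while CpG 55, 72 and 77 were not called. The calls rest on the size required. At a minimum of 5 points 26 CpGs were called between trunk and mESC and 18 between tail and trunk, and at 20 points 0 and 1, with 2 between tail and mESC.

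The profile is described over 3 stretches of the amplicon, which were set with earlier results of these data known and are given without a test. The start holds the first 5 CpGs, the middle the next 4 and the main stretch the remaining 20. In tail the start had a mean of 58.6%, the middle 44.4% and the main stretch 51.7%. The tail start thus lay 6.86 points above the main stretch (interval 5.46 to 8.27). In mESC and trunk the start and the main stretch were level, with differences of -0.311 points (-1.90 to 1.28) and -0.309 points (-1.81 to 1.19). The start excess of tail exceeded that of trunk by 7.17 points (5.12 to 9.23) and that of mESC by 7.17 points (5.05 to 9.30). The middle lay below the main stretch in all 3 sources, by value most in tail. The difference was -2.48 points in mESC (-3.64 to -1.32), -5.50 in trunk (-6.74 to -4.27) and -7.28 in tail (-8.40 to -6.16). In oocytes the start had 0.428%, the middle 0.242% and the main stretch 0.281%.

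Single reads show whether methylated and unmethylated calls lie on separate reads or are mixed on the same read. How far PCR shaped mixed reads or the shares of reads was not tested. A mixed read is thus not shown to be a partly methylated copy, nor a share of reads a share of copies. Each read with 5 or more calls was put in a class: mostly methylated from 70% of its calls upward, mostly unmethylated up to 30%, and otherwise between. In oocytes all 1178 reads were mostly unmethylated. None was mostly methylated or between, and a count of 0 allows a share of up to 0.255%. Mostly methylated reads made up 34.5% in mESC (Wilson interval 31.9 to 37.3), 41.6% in trunk (39.0 to 44.2) and 45.2% in tail (42.8 to 47.5). Mostly unmethylated reads made up 60.2% in mESC (57.4 to 62.9), 51.7% in trunk (49.1 to 54.4) and 44.0% in tail (41.7 to 46.4). Reads between the bounds were 5.29% in mESC (4.16 to 6.70), 6.68% in trunk (5.47 to 8.13) and 10.8% in tail (9.43 to 12.4).

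**Figure D2:**
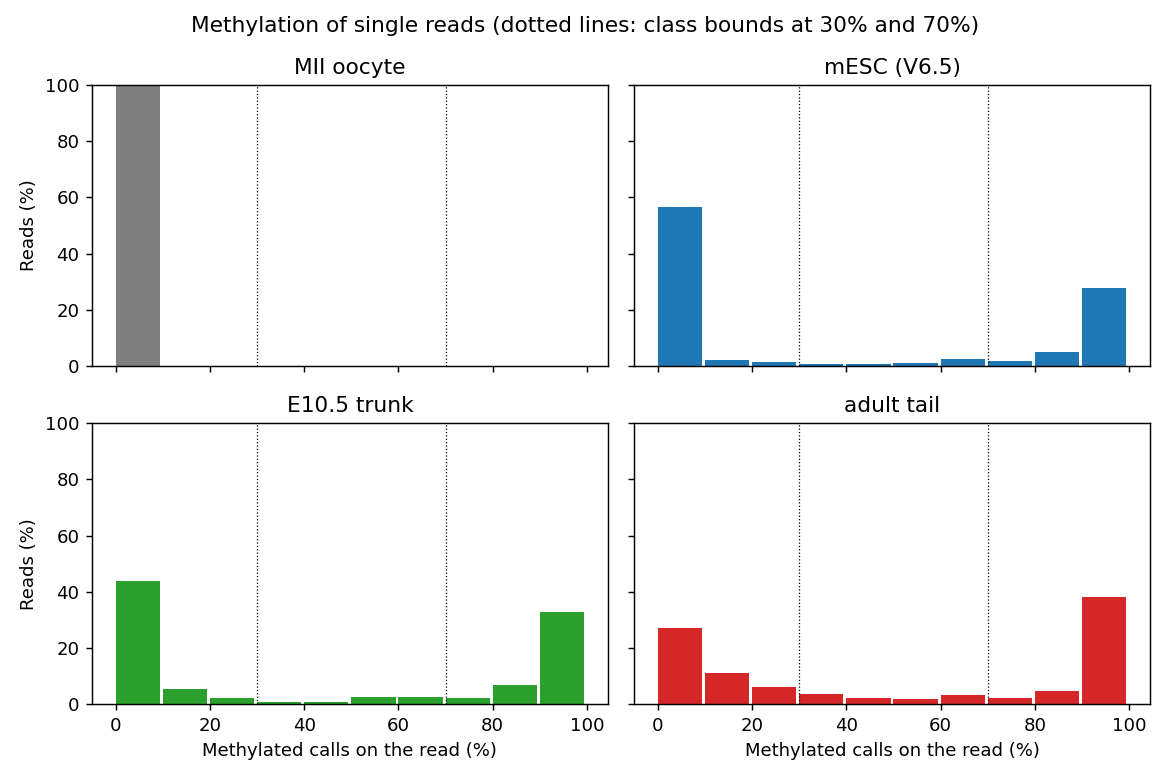
Histograms of the methylation of single reads (% of the read's calls) in bins of 10 points, 1 panel for each source, with the share of reads (%) on the vertical axis and dotted lines at the class bounds of 30% and 70%. All 1178 oocyte reads fall in the lowest bin, and the other sources have a peak at each end, with 56.6% of mESC, 43.9% of trunk and 27.0% of tail reads in the lowest bin.

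The share of mostly methylated reads differed between all 6 pairs of libraries by Fisher's exact test adjusted over the pairs. By Fisher's exact test trunk was 7.05 points above mESC (interval 3.30 to 10.8, adjusted p = 0.000305) and tail 10.6 points above mESC (7.05 to 14.2, adjusted p = 1.24e-08). Tail was 3.58 points above trunk (0.0573 to 7.08, adjusted p = 0.0486 by Fisher's exact test), and this call was lost with bounds of 80% and 20% (3.41 points, adjusted p = 0.0607). With bounds of 90% and 10% the difference was 5.54 points. For mostly unmethylated reads, trunk minus mESC was -8.44 points (-12.2 to -4.60) and tail minus trunk -7.70 points (-11.2 to -4.16). With bounds of 90% and 10% these were -12.7 and -16.8 points, and tail minus trunk was -4.93 with 60% and 40%. With identical patterns counted once, the differences in mostly methylated and mostly unmethylated reads between mESC, trunk and tail all changed sign. For mostly methylated reads, tail was then called below mESC (adjusted p = 4.89e-06) and trunk (0.00180) by Fisher's exact test. Trunk minus mESC was not called there (0.130). No difference in mostly unmethylated reads was called (adjusted p from 0.0839 to 0.377 by Fisher's exact test). Of the reads in either class, mostly methylated ones were 36.5% in mESC (33.7 to 39.3), 44.6% in trunk (41.9 to 47.3) and 50.6% in tail (48.2 to 53.1). With bounds of 70% and 30%, equal numbers of both kinds of read lie inside the tail interval and outside the mESC and trunk intervals. In tail, bounds of 80% and 20% gave 42.8% mostly methylated and 38.0% mostly unmethylated reads. Bounds of 90% and 10% gave 38.2% and 27.0% there, and bounds of 60% and 40% gave 48.3% and 47.6%. Whether equal numbers held with those other bounds was not tested. Within 5 points of the 30% bound there were 0 reads inside and 5 outside in mESC, 7 and 8 in trunk, and 28 and 43 in tail. Within 5 points of the 70% bound there were 5 reads inside and 19 outside in mESC, 5 and 24 in trunk, and 17 and 29 in tail. Those outside are a sizeable part of the 64 mESC, 91 trunk and 187 tail reads between the bounds. Over the bounds tried, the mostly unmethylated share of tail ran from 27.0% to 47.6%.

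Mostly unmethylated reads were cleanest in oocytes and carried the most stray methylated calls in tail. Reads with at least 20 calls were used, 1079 in oocytes, 701 in mESC, 690 in trunk and 746 in tail. At least 1 methylated call was present on 8.80% of these reads in oocytes (Wilson interval 7.26 to 10.6) and on 27.0% in mESC (23.8 to 30.4). The share was 53.9% in trunk (50.2 to 57.6) and 76.7% in tail (73.5 to 79.6). Each of the 6 pairs differed by Fisher's exact test, and the closest pairs were trunk over mESC with 27.0 points (adjusted p = 1.16e-24), tail over trunk with 22.8 points (1.11e-19) and mESC over oocytes with 18.2 points (6.95e-24). With identical patterns counted once, tail and trunk differed by 1.59 points (adjusted p = 0.527 by Fisher's exact test), and the other 5 pairs kept their call and direction. Without the first 3 and last 3 CpGs, tail was 12.5 points above trunk.

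Stray calls per 100 calls were 0.318 in oocytes (interval 0.256 to 0.379), 1.90 in mESC (1.58 to 2.23), 4.17 in trunk (3.73 to 4.62) and 8.40 in tail (7.83 to 8.97). The oocyte value counts every methylated call on its reads, and conversion errors, sequencing errors and methylation cannot be told apart in it. The class bound of 30% limits how many stray calls a read can hold. With the bound at 10% the values were 0.318, 0.898, 2.06 and 3.09, in the same order.

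Oocyte reads rarely held more than 1 stray call, and tail reads often did. In oocytes 93 reads had exactly 1, 2 reads had 2, and none had more. Reads with at least 4 stray calls made up 5.28% in mESC, 9.13% in trunk and 26.8% in tail. The mean number on a read was 0.0899 in oocytes, 0.541 in mESC, 1.19 in trunk and 2.41 in tail.

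**Figure D3:**
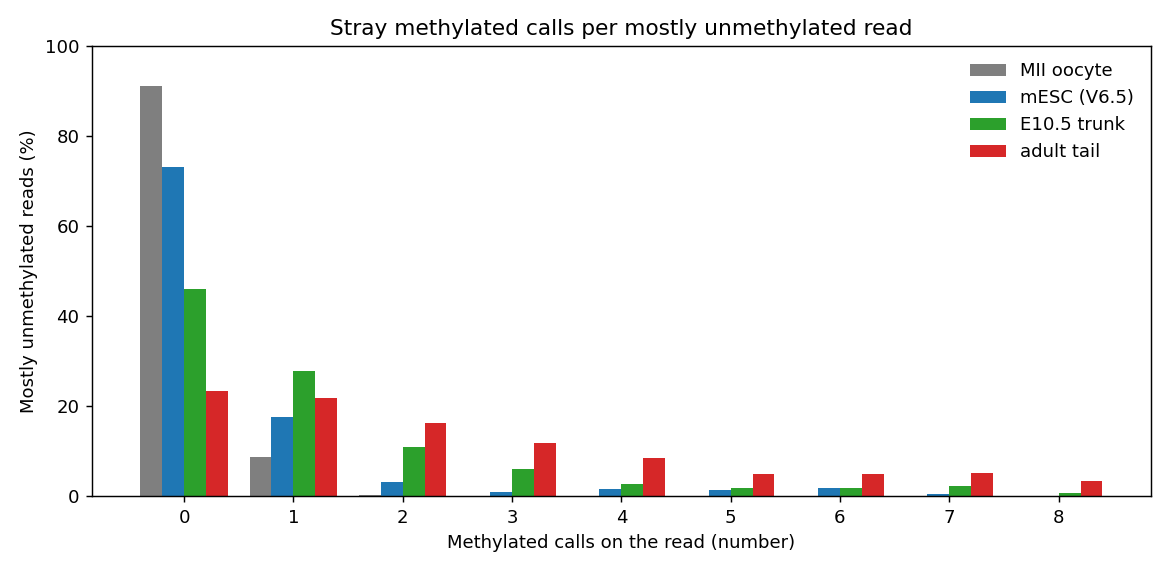
Share of mostly unmethylated reads (%) by the number of methylated calls on the read, for reads with at least 20 calls, with 1 bar for each source. Reads without such a call are 91.2% in oocytes, 73.0% in mESC, 46.1% in trunk and 23.3% in tail, and the tail bars extend furthest to the right.

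In tail the stray calls peaked at CpG 59. On mostly unmethylated tail reads CpG 59 was methylated in 293 of 730 calls, or 40.1% (Wilson interval 36.6 to 43.7). The share was 11.7% in trunk (9.44 to 14.3), 5.62% in mESC (4.12 to 7.62) and 0.387% in oocytes (0.151 to 0.991). CpG 72 followed in tail with 27.6%, then CpG 55 with 19.97% and CpG 77 with 14.8%. The highest CpG of the main stretch in tail was CpG 214, at 12.6%, against 5.22% in trunk and 0.571% in mESC. CpG 147 was the lowest in tail, at 0.670%. In trunk CpG 59 was also the highest and CpG 246 the lowest, at 1.02%. In mESC CpG 55 led with 5.93%, and 3 CpGs of the main stretch, CpG 216, 228 and 231, had none. In oocytes CpG 228 led, with 1.31%.

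By stretch, the stray rate in tail was 22.1% in the start, 2.83% in the middle and 6.12% in the main stretch. In trunk it was 8.59%, 4.20% and 3.07%, and in mESC 5.03%, 1.48% and 1.21%. The oocyte library had 0.462%, 0.258% and 0.294%. By value, the start was thus the highest stretch in each library, and the middle was the lowest in tail and in oocytes. In oocytes these differences were not resolved. Over all oocyte reads, the start minus the main stretch was 0.147 points (interval -0.0366 to 0.330). The middle minus the main stretch was -0.0389 points (-0.198 to 0.121). At single CpGs the stray share was higher in tail than in trunk at 22 of 29, in trunk than in mESC at 25 of 29, and in mESC than in oocytes at 26 of 29, by value.

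**Figure D4:**
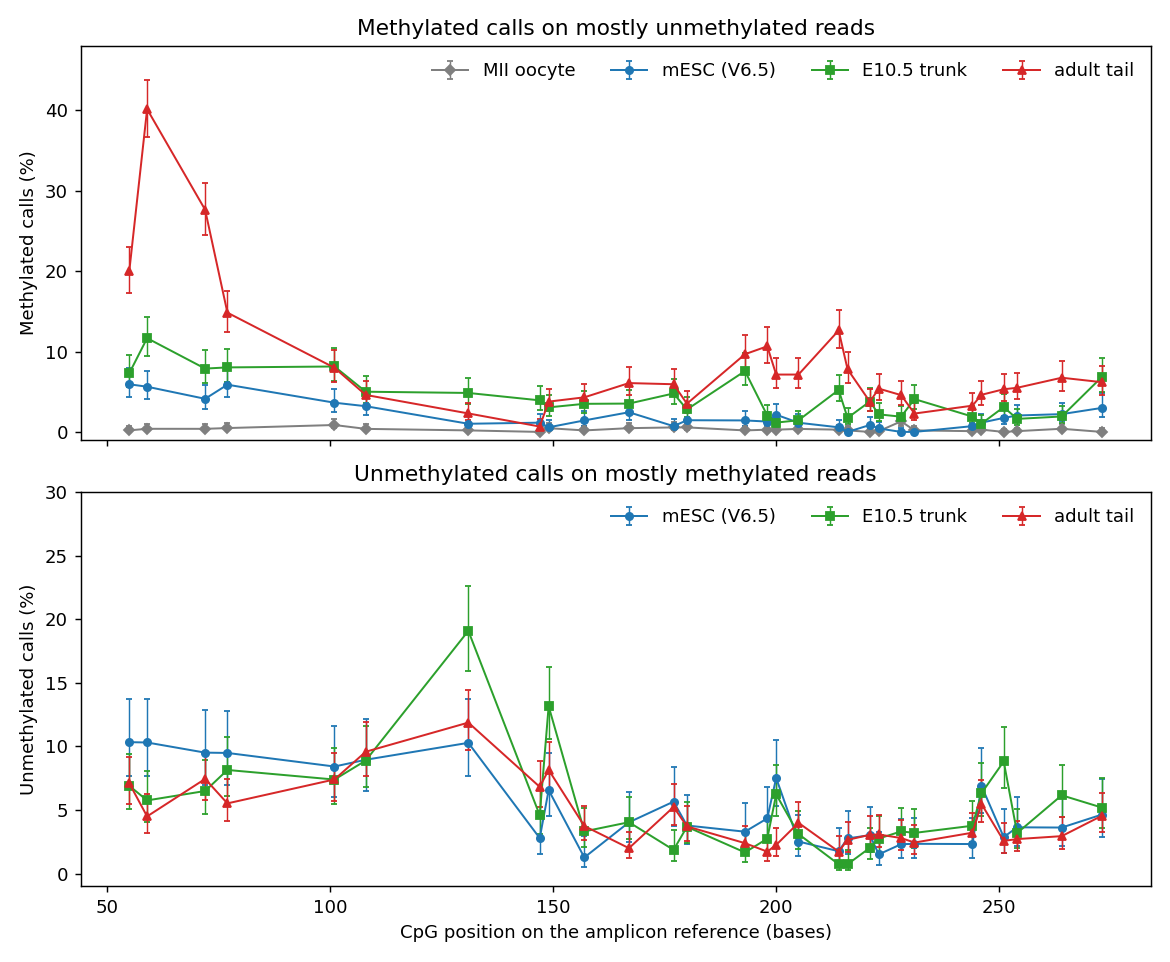
Upper panel: methylated calls (%) on mostly unmethylated reads at each CpG, by base on the amplicon reference, for 4 sources. Lower panel: unmethylated calls (%) on mostly methylated reads for the 3 sources that have such reads. Bars are 95% Wilson intervals. The tail line reaches 40.1% at CpG 59 in the upper panel, and CpG 131 is the highest point of trunk (19.1%) and tail (11.9%) in the lower panel.

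A read's class depends on the CpG that is being examined, so reads were also classed on the main stretch alone, a choice made after the values were seen. On reads with no methylated call in the main stretch, CpG 59 was methylated in 35.2% of tail calls (Wilson interval 30.2 to 40.4), 10.9% of trunk calls (8.22 to 14.2), 5.70% of mESC calls (4.07 to 7.94) and 0.421% of oocyte calls (0.164 to 1.08). The start had a mean of 18.3% on these reads in tail, 7.83% in trunk, 5.14% in mESC and 0.481% in oocytes. CpG 147 on the same reads was at 0.295% in tail, 2.81% in trunk and 1.57% in mESC.

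Stray methylation at CpG 59 was examined together with that of its neighbours. On mostly unmethylated mESC reads with CpG 59 methylated, CpG 55 was methylated too on 78.9% of 38 reads (Wilson interval 63.7 to 88.9), against 1.57% of reads with CpG 59 unmethylated. In trunk the share was 42.3% of 78 reads (32.0 to 53.4), and in tail 31.2% of 292 reads (26.1 to 36.7), against 2.54% and 12.7%. At CpG 72, on the other side, the intervals overlapped, with 56.8% in mESC (40.9 to 71.3), 37.2% in trunk (27.3 to 48.3) and 46.0% in tail (40.4 to 51.8). CpG 59 was the only methylated call on 59 of the 162 tail reads with exactly 1 such call, or 36.4%. It was the only one on 16 of 192 such reads in trunk and 4 of 124 in mESC.

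Reads that changed state between the start and the main stretch were found in the 3 sources with both parental copies. Where the main stretch was at most 30% methylated, all 5 start CpGs were methylated on 2.81% of mESC reads, 3.46% of trunk reads and 5.72% of tail reads, and on none of 993 oocyte reads. Where the main stretch was at least 70% methylated, none of the start CpGs was methylated on 8.10% of mESC reads, 7.22% of trunk reads and 2.24% of tail reads. By value, the unmethylated start on methylated reads had the larger share in mESC and trunk, and the methylated start on unmethylated reads in tail.

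Mostly methylated reads differed less between sources than unmethylated ones did. Reads with at least 20 calls were 400 in mESC, 548 in trunk and 756 in tail. At least 1 unmethylated call, a gap, was present on 61.8% of them in mESC (Wilson interval 56.9 to 66.4), 66.2% in trunk (62.2 to 70.1) and 57.1% in tail (53.6 to 60.6). Tail was 9.10 points below trunk (interval 3.75 to 14.3, adjusted p = 0.00311 by Fisher's exact test over 3 pairs). Trunk against mESC gave 4.49 points (-1.67 to 10.7) and tail against mESC -4.61 points (-10.4 to 1.37), with an adjusted p of 0.170 by Fisher's exact test in each. Counting identical patterns once, the difference of tail from trunk by Fisher's exact test was -4.46 points (adjusted p = 0.212), that of tail from mESC changed sign, and trunk was called above mESC (8.16 points, adjusted p = 0.0400). Gaps per 100 calls were 5.05 in mESC (4.43 to 5.66), 5.27 in trunk (4.76 to 5.78) and 4.49 in tail (4.05 to 4.93).

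CpG 131 had the highest share of gaps in trunk and tail. It was unmethylated in 19.1% of 529 calls on mostly methylated trunk reads (Wilson interval 16.0 to 22.7), and in 11.9% of tail calls (9.74 to 14.4). In mESC it was at 10.3%, beside CpG 55 (10.3%), which was the highest there by value, and CpG 59 (10.3%). The ninth CpG had gaps in 13.2% of trunk calls, 8.16% of tail calls and 6.57% of mESC calls. CpG 214 and CpG 216 were the most complete in trunk, with 0.730% gaps each, CpG 198 in tail, with 1.72%, and CpG 157 in mESC, with 1.26%. By stretch, gaps were most frequent in the start in mESC, at 9.61% of calls, and in the middle in trunk, at 11.4%, and tail, at 9.10%. The main stretch had the fewest in all 3, at 3.50% in mESC, 3.62% in trunk and 3.10% in tail. At CpG 59, where tail had its peak of stray calls, gaps were 4.50% in tail, 5.75% in trunk and 10.3% in mESC.

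The high level of CpG 59 in tail was made up of several classes of reads. Of its 68.7%, 43.1 points came from mostly methylated reads, 8.18 from reads between the bounds and 17.4 from mostly unmethylated reads. In trunk, of 48.4% on reads with at least 5 calls, the parts were 39.4, 3.02 and 5.96 points, and in mESC, of 37.1%, they were 31.1, 2.67 and 3.27 points. Over the whole amplicon, mostly unmethylated reads gave 0.301 points of the level in oocytes, 1.14 in mESC, 2.17 in trunk and 3.72 in tail. Mostly methylated reads gave 32.7 points in mESC, 39.2 in trunk and 43.0 in tail.

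Without any class bounds, reads changed state along the amplicon most often in tail by value. On reads called at all CpGs, the mean number of changes of state along the read was 0.186 in oocytes (interval 0.143 to 0.229), 1.23 in mESC (1.09 to 1.36), 2.17 in trunk (2.01 to 2.33) and 2.93 in tail (2.76 to 3.09). Reads without any change made up 90.9% in oocytes, 56.4% in mESC, 38.4% in trunk and 28.5% in tail. The pair CpG 55 and CpG 59, 4 bases apart, differed in state on 23.1% of tail reads, 8.67% of trunk reads and 3.79% of mESC reads. It was the most discordant neighbouring pair in tail. In trunk this was CpG 131 and CpG 147, with 14.4% against 7.64% in tail, and in mESC the sixth CpG and CpG 131 (7.0%). Tail was above trunk at 23 of the 28 neighbouring pairs and below it at 5.

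Reads with an intermediate level were few in mESC and trunk and more frequent in tail. Tail exceeded trunk by 4.13 points (interval 2.13 to 6.09, adjusted p = 7.57e-05 by Fisher's exact test over the 6 pairs), but by 0.653 points with bounds of 60% and 40% (adjusted p = 0.395). Trunk exceeded mESC by 1.39 points (-0.468 to 3.22, adjusted p = 0.158 by Fisher's exact test), and this was called with 3 other choices of bounds (adjusted p from 1.16e-06 to 0.0494). Among such reads with at least 20 calls, the start was at 47.4% in mESC (59 reads), 36.8% in trunk (90 reads) and 60.2% in tail (176 reads). The middle was at 41.5%, 26.6% and 21.4%, and the main stretch at 60.7%, 65.1% and 51.5%. CpG 59 was the most methylated CpG of these reads in tail, at 76.0%, and CpG 147 the least, at 17.0%. CpG 131 was the least methylated in trunk, at 22.2%.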

How the data were processed

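Genomic DNA was treated with bisulfite, amplified by nested, locus-specific PCR and read by Nanopore amplicon sequencing, per the labels' protocols. Bisulfite does not separate methylcytosine from hydroxymethylcytosine. The authors' deposited files hold 1 call per read and CpG, methylated or unmethylated, written by the Bismark methylation extractor 0.22.3 per the file headers. Bismark 0.24.2 and mm10 stand in the submitters' processing notes. The way reads were aligned is not given in the sources used here. Since the files hold calls at CpGs only, they give no measure of conversion elsewhere.

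A position was taken as an amplicon CpG when at least 10% of a library's reads had a call there. Levels are percentages of methylated calls, averaged over CpGs with at least 10 calls, and their intervals come from the variance between whole reads. Shares of reads have Wilson intervals. Fisher's exact test, two-sided, compared CpGs and shares, and p was adjusted by Benjamini-Hochberg over 174 CpG tests, over 6 pairs of shares, or over 3 pairs for gaps. A limit for a count of 0 uses 3 counts. Named CpGs are those with the highest and lowest level and the highest stray and gap share in a library, the largest and smallest difference in a pair, and the first and last CpG, and others were chosen after their values were seen. Members, stretches and comparisons were chosen with earlier results of these data known. The tests were tested on simulated reads, and this is not given as evidence for the p-values or intervals of these PCR reads. Software was Python 3.11.15, numpy 2.4.6, scipy 1.17.1, pandas 2.3.3 and matplotlib 3.10.9.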

Additional observations from a re-analysis of the deposited data

How the results depend on the processing

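Each source has 1 library, so no replicate could be left out, and the depth limits only the precision of these 4 libraries. No paired analysis was possible because each source has 1 library. Of 247 alternative values of the comparisons, 209 kept their direction and their side of the threshold or stayed within their interval, and 38 changed, 10 of them in direction. Of 234 single values, 144 kept and 90 changed. Alternatives for the share between the bounds, the stray and gap rates, the changes of state and CpG 59 on unmethylated reads were chosen after seeing the data. Minimums of 5 or 30 calls per CpG could change nothing, since every CpG had at least 876 calls. Calls at every position could not either. Each library had only 5 to 8 calls outside the amplicon CpGs, under the minimum of 10. Of the 209 kept, these settings gave 10, 16 and 10 in turn, and of the 144 the minimum of 30 gave 22. Pooling of calls and reads with at least 25 calls ended or reversed none of the comparisons. Reads with at least 20 calls did not either, with 26 CpGs called between tail and mESC and 5 between tail and trunk, but CpG 131 then lost its adjusted p under 0.05 between trunk and mESC. Counting identical reads once changed most. Whether reads of the same pattern were copies of 1 molecule was not tested. In all, 162 distinct patterns remained in oocytes, 455 in mESC, 574 in trunk and 815 in tail. Of these, 27, 199, 308 and 499 in that order came from reads called at all CpGs. The rest hold missing calls.

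With identical patterns counted once, the means were 1.37% in oocytes, 55.7% in mESC, 52.9% in trunk and 48.6% in tail. Differences from oocytes were 54.4 points for mESC, 51.5 for trunk and 47.3 for tail. Trunk minus mESC was -2.85, tail minus mESC -7.09 and tail minus trunk -4.24 points. Called CpGs were 0 between trunk and mESC and 10 between tail and mESC (1 higher and 9 lower in tail). The 3 between tail and trunk (1 higher, 2 lower) were scored as kept. By value, trunk was below mESC at 23 of 29 CpGs, tail below mESC at 27 and tail below trunk at 24. The mostly methylated share differed by -4.94 points (trunk minus mESC), -13.6 (tail minus mESC) and -8.62 (tail minus trunk), and the mostly unmethylated share by 3.24, 5.64 and 2.40 points. Of these, only tail minus mESC and tail minus trunk in the mostly methylated share were called. The share of reads with a stray call differed by 1.59 points between tail and trunk. The share with a gap differed by 8.16 (trunk minus mESC), 3.71 (tail minus mESC) and -4.46 points (tail minus trunk). The start minus the main stretch was 0.723 points in oocytes and -1.98 in trunk, and the middle minus the main stretch 0.187 in oocytes, -4.60 in mESC, -9.34 in trunk and -11.8 in tail. Of the named CpGs recomputed in each pair, those that reversed were, for trunk minus mESC, CpG 55 (-4.99 points), CpG 131 (-9.23) and the last CpG (-5.53), for tail minus mESC, CpG 55 (-2.27), CpG 147 (-18.3) and the last CpG (-15.8), and for tail minus trunk, CpG 147 (-15.7) and the last CpG (-10.3). CpG 147 was also at -0.116 points between tail and trunk on reads with at least 20 calls. In tail CpG 59 kept its call, 12.7 points over mESC and 11.6 over trunk.

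With a minimum of 5 points, called CpGs were 26 between trunk and mESC and 18 between tail and trunk, and with 20 points 0, 2 (tail and mESC) and 1 (tail and trunk). Bounds of 80% and 20% gave 3.41 points for the mostly methylated share of tail over trunk and 2.63 for the share between the bounds of trunk over mESC. The latter was 7.69 points with bounds of 90% and 10% and 1.38 with 60% and 40%, where tail over trunk was 0.653. Where only the bounds or the size required changed, the cause was not tested.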

Other observations

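The profiles of mESC, trunk and tail along the amplicon were compared in pairs. Across the 29 CpGs, the share of gaps on mostly methylated reads had a Pearson r of 0.784 between trunk and tail, 0.709 between mESC and tail, and 0.651 between mESC and trunk. The share of stray calls on mostly unmethylated reads had 0.711, 0.708 and 0.723, and the level itself 0.589, 0.372 and 0.649. The Spearman values were 0.644, 0.555 and 0.654 for gaps, 0.354, 0.520 and 0.467 for stray calls, and 0.481, 0.442 and 0.298 for the level. These are descriptions across CpGs that share the same reads, library and surrounding bases, and they carry no p.

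In the oocyte library CpG 228 held 14 of the 97 methylated calls on reads with at least 20 calls, the most of any CpG, and the next was the fifth CpG with 9. On 13 of the 93 oocyte reads with exactly 1 methylated call, that call was at CpG 228. None of the 97 stood next to another methylated call on its read. Only 2 oocyte reads held 2 or more such calls, 4 calls in all, so oocytes cannot be compared with the other sources here. Of all stray calls, 209 of 379 stood next to another in mESC, 338 of 821 in trunk and 947 of 1796 in tail. On reads with 2 or more, the share was 82.0% of 255 calls in mESC, 53.7% of 629 in trunk and 58.0% of 1634 in tail.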
